A study of Drosophila melanogaster with 6 samples.

Results

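Mitochondrial ribosomal proteins are the nuclear-encoded proteins of the ribosome inside mitochondria. The members described here are the genes whose symbol in the array annotation begins with mRpL (large subunit) or mRpS (small subunit) and that have a probe set of their own, with 1 probe set kept per gene, the one whose mean over the 6 arrays was highest. This symbol rule used no expression difference. It found 69 genes, 44 of the large and 25 of the small subunit, of 11982 genes with a probe set of their own; tests ran over all 18769 probe sets. The gene table used for names lists 73 such genes, and the other 4 (mRpL34, mRpL37, mRpL53 and mRpS10) were not analysed here.

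The mitochondrial ribosome translates the few messages of the mitochondrial genome, which encode core subunits of the respiratory chain and the ATP synthase. Its proteins are made in the cytosol and imported, so that their transcripts are measured with those of other nuclear genes. Some members descend from bacterial ribosomal proteins and keep the bacterial number, while others are found only in mitochondrial ribosomes. In Drosophila, loss of some members slows growth, and mRpL12 was identified as a gene that growth driven by Cyclin D and Cdk4 requires.

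The samples were 6 cultures of S2 cells, a macrophage-like line from Drosophila embryos. The 3 control cultures received medium alone and the 3 treated cultures received 25 apoptotic cell fragments per cell, and both groups were kept at 25 °C for 1 h. All cultures were in medium with 1% serum, after maintenance with 10% serum, and were detached with trypsin and EDTA. The fragments came from S2 cells killed with cycloheximide, an inhibitor of protein synthesis, at 1.5 µg/ml for 24 h; RNA or cycloheximide that came with the fragments cannot be told apart from a response of the engulfing cells. S2 cells are a cell line and stand in for phagocytes of the fly only as such. In whole-culture RNA, fewer cells of a kind and less RNA per cell cannot be told apart.

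Values are log2 expression levels as deposited, and a log2 fold change is the mean with fragments minus the mean in medium alone, so that -1 would be a halving. A probe set is called varying if its values span at least 0.01 log2 units over the 6 arrays; the others are flat and can show no change. A flat value does not show that a transcript is absent. Of the 69 members 63 were varying, 39 of the large and 24 of the small subunit. The flat members were mRpL3, mRpL15, mRpL16, mRpL19, mRpL28 and mRpS9, with levels between 8.82 and 10.2.

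The cells' labelled type and the arrays were checked first. Of 13 hemocyte markers 11 were varying, with the GATA factor gene srp at a level of 10.8 and Hml at 9.30, whereas NimC1 and Sr-CI, at 6.09 and 5.94, were flat. A varying marker is not always a high one, since He and Pxn, at 5.97 and 6.85, are among the 11. Of 19 measured markers of other cell types 14 were flat, and the varying ones were elav, moody, bam, vas and PPO3, at levels of 8.29, 8.88, 7.36, 6.13 and 7.63. Single markers differed between the groups by more than the members' medians, with log2 fold changes of 0.91 for bam and 0.29 for elav and, among the hemocyte markers, of -0.80 for crq, 0.63 for ush and 0.50 for zfh1. The mean level of these 19 lay between 6.51 and 6.62 in medium alone and between 6.61 and 6.65 with fragments. Its part in the results was not tested.

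Medium-alone replicate 3 stood apart from the other arrays. Across the 63 varying members it correlated with medium-alone replicates 1 and 2 at r = 0.896 and 0.909 (Pearson), whereas those replicates correlated with each other at 0.990 and the fragment arrays with each other at 0.982 to 0.989. These r values are across genes, which are not independent replicates. Values without this array are therefore given beside the group results and beside those named genes whose value it moved by over 1.5 times.

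After 1 h with fragments the mitochondrial ribosomal protein genes read slightly lower as a group, and most of the difference came from the high levels on medium-alone replicate 3. On the deposited scale 61 of the 63 varying members had a lower mean with fragments, against 52.2% of all 7241 varying probe sets. Every one of the 39 large subunit members was lower, with a median log2 fold change of -0.28, and 22 of 24 small subunit members, with a median of -0.18; the median of all varying probe sets was -0.0035. At least 1.2-fold lower were 30 of the 63 members and 11.6% of varying probe sets, but without medium-alone replicate 3 these were 8 members and 9.36%. Without medium-alone replicate 3 these medians became -0.12 and -0.071, and 36 of 39 and 18 of 24 members were still lower, against 53.9% of all varying probe sets. Leaving out any other single array kept the medians between -0.37 and -0.25 for the large and between -0.26 and -0.16 for the small subunit.

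The direction depended on the scale of the arrays. With quantile normalization, or with each array centred on the median of its varying probe sets, 61 of 63 members stayed lower, but with each array set to its hybridisation spikes only 30 were lower and 33 were higher. The spikes are foreign transcripts put into each hybridisation, and this scale added 0.26 to every log2 fold change. On the deposited scale 61 of the 63 lay below the median of all varying probe sets, by 0.26 log2 units at the median. Spike scaling and centring move every log2 fold change by the same amount, so by construction they cannot alter this count or distance. Quantile normalization could alter them, and it gave 61 and 0.24. Once medium-alone replicate 3 was left out, 54 members were lower on the deposited scale, 50 after quantile normalization, 44 after centring and 14 on the spike scale. Below the median of all varying probe sets then lay 51 of the 63 on the deposited scale, by 0.099 log2 units at the median. After quantile normalization these were 50 and 0.086.

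As single genes the members did not pass. In the limma fit, with p-values adjusted by Benjamini-Hochberg across the 18769 probe sets, 0 of 69 members had an adjusted p below 0.05, against 0.304% of all probe sets (0.25% lower and 0.0533% higher), and the smallest adjusted p of a member was 0.235. An unadjusted p under 0.05 was reached by 11 of the 69 (15.9%), and by 10.8% of all probe sets. One of the 11 is the flat mRpS9, whose log2 fold change was -0.0020, so that 10 of them vary. Flat probe sets make up 61.4% of the array but few of the members, so these 2 shares are not like for like. The SD that limma shares across probe sets was 4.38e-09 in this fit, with 0.123 prior degrees of freedom. Members were thus judged almost on their own SDs. In the fit to varying probe sets these values were 0.0612 and 1.36. In the fit to varying probe sets, 14 of the 63 varying members (22.2%) had an unadjusted p under 0.05, against 23.6% of varying probe sets. With the adjustment restricted to varying probe sets, 2 of the 63 passed, mRpL43 and mRpS6, both lower, against 6.85% of the varying probe sets (4.56% lower and 2.29% higher). These calls depended on the scale: with arrays centred on their varying median mRpL38, mRpL43 and mRpS6 passed on the whole array, where 3.71% of all probe sets then passed, and 0 members within the varying set, and after quantile normalization or on the spike scale 0 passed in either. They also depended on single arrays. Without medium-alone replicate 1 or 2, or fragment replicate 1 or 2, 0 members passed within the varying set, and without fragment replicate 3 mRpL38, named here because it passed, and mRpS6 did. With all arrays on the deposited scale, the share of members called was below that of varying probe sets.

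In 27 of the 63 varying members (42.9%) all 3 fragment arrays read lower than every medium-alone array, against 17.4% of varying probe sets and 20.6% of the 3189 with mean levels in the members' range. These were 19 of the large and 8 of the small subunit. The opposite order, with all fragment arrays above, was seen in 0 of the 63, against 14.7%. With medium-alone replicate 3 set aside, the fragment arrays of 27 members lay below the other medium-alone arrays, against 24.6% of varying probe sets, and of 3 members above, against 19.2%.

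**Figure D1:**
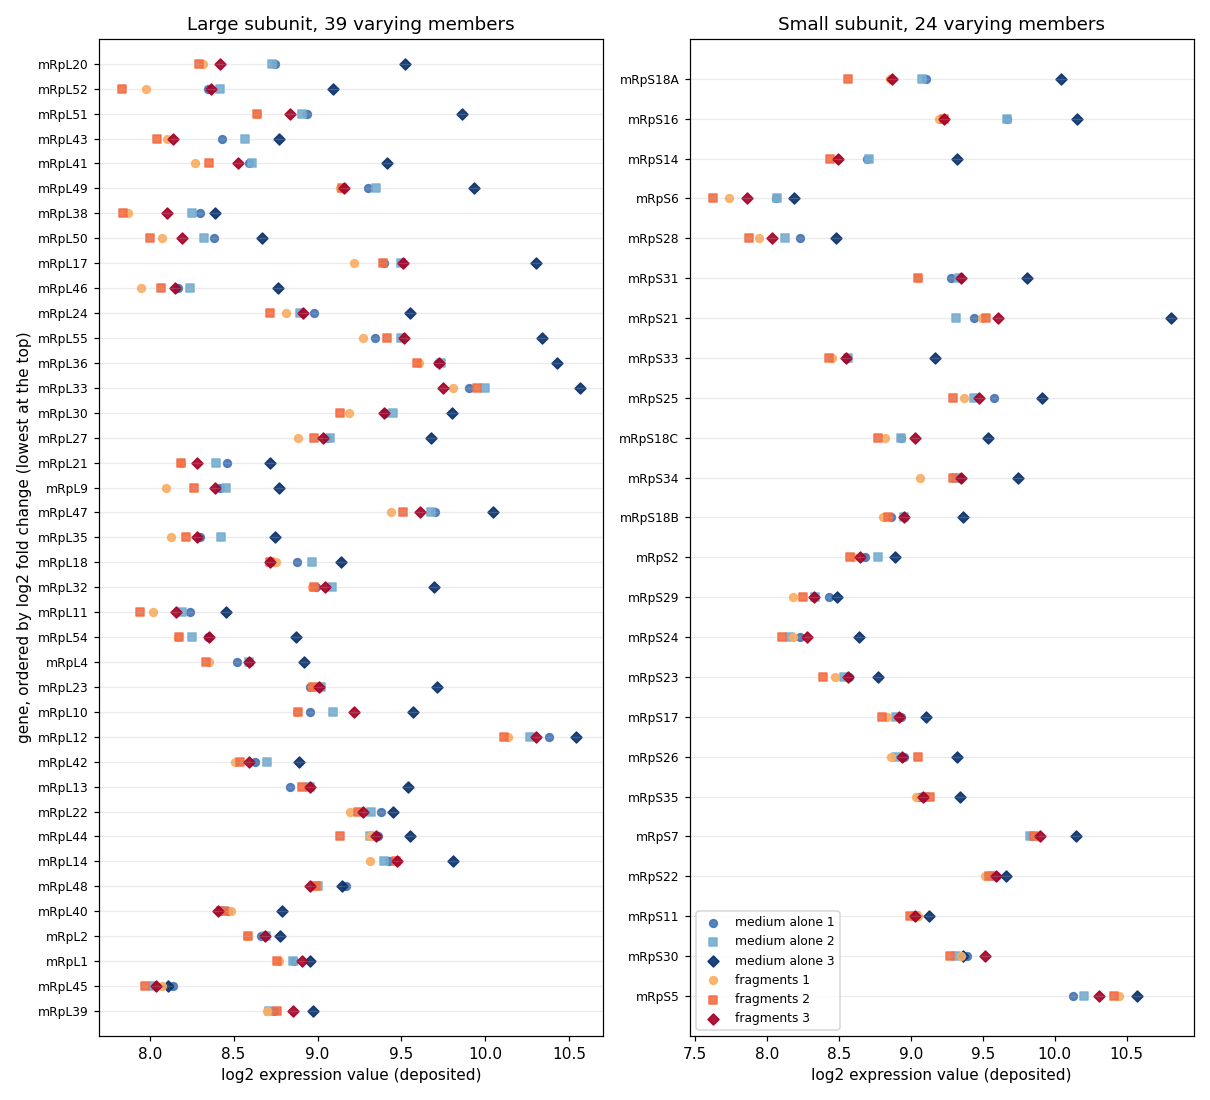
Deposited log2 level (x axis) of each varying member (1 row per gene, ordered by log2 fold change with the lowest at the top) on the 6 arrays, with blue marks for medium alone and orange to red marks for fragments. The dark blue diamonds of medium-alone replicate 3 lie furthest right in 60 of the 63 rows.

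Among the large subunit members the most negative fold change was that of mRpL20, whose bacterial homologue acts early in assembly of the large subunit. It read 8.75, 8.73 and 9.52 in medium alone and 8.32, 8.29 and 8.42 with fragments. The groups did not overlap, but medium-alone replicate 3 stood 0.78 above the mean of the other two, so that the log2 fold change was -0.66 (a 1.58-fold lower level; SE 0.261, limma adjusted p = 0.501) with it and -0.39 without it.

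The next 5 of the large subunit were all members found only in mitochondrial ribosomes. The levels of mRpL52 were 8.35, 8.42 and 9.10 in medium alone and 7.98, 7.83 and 8.37 with fragments, a log2 fold change of -0.56 with groups that overlapped. For mRpL51 they were 8.94, 8.91 and 9.86 against 8.64, 8.64 and 8.84 (-0.53), and mRpL41 went from 8.59, 8.61 and 9.41 to 8.27, 8.35 and 8.52 (-0.49). In these 3 genes the SD of the medium-alone arrays (0.413, 0.542 and 0.470) was close to the size of the difference, and their adjusted p over all probe sets lay between 0.608 and 0.662. Without medium-alone replicate 3 their log2 fold changes were -0.32, -0.22 and -0.22.

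The member that passed among the varying probe sets, mRpL43, was less dependent on that array. Its levels were 8.43, 8.57 and 8.77 in medium alone and 8.10, 8.05 and 8.14 with fragments, 8.59 ± 0.170 against 8.10 ± 0.0474 (SD, n = 3). The groups were apart, and the log2 fold change of -0.49 (a 1.41-fold fall; SE 0.0917) passed limma among the varying probe sets (adjusted p = 0.0412), but its adjusted p was 0.235 over all 18769. Without medium-alone replicate 3 it was -0.40 with an adjusted p of 0.0182 among the varying probe sets.

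The mitochondrion-specific mRpL49 showed tight fragment arrays. It read 9.13, 9.15 and 9.16 with fragments, below 9.30, 9.35 and 9.93 in medium alone. Its log2 fold change was -0.38 with all arrays and -0.18 without medium-alone replicate 3, and within the varying set it passed only without that array (adjusted p = 0.276 and 0.0351).

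At the other end of the large subunit were mRpL48, mRpL40, mRpL2, mRpL1, mRpL45 and mRpL39, with log2 fold changes between -0.13 and -0.04. The homologue of mRpL2 in bacteria lies at the peptidyl transferase centre and that of mRpL1 forms the stalk at which the emptied tRNA leaves. In human mitochondria, the homologue of mRpL45 holds the ribosome at the inner membrane. For mRpL2 the levels were 8.66, 8.69 and 8.78 against 8.58, 8.59 and 8.69, and for mRpL45 they were 8.14, 8.02 and 8.11 against 8.08, 7.97 and 8.04. Without that array the log2 fold changes of mRpL40, mRpL2, mRpL1 and mRpL39 were -0.0018, -0.060, -0.046 and 0.044. In both mRpL2 and mRpL45 the groups overlapped and medium-alone replicate 3 was within 0.10 of the others' mean.

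The stalk that recruits translation factors is built from mRpL12 on a base with mRpL10 and mRpL11. The naming rule selects mRpL12, and the other genes of this paragraph were picked for their place in the ribosome after their values had been seen. The gene mRpL12 read 10.38, 10.27 and 10.54 in medium alone and 10.13, 10.11 and 10.30 with fragments, groups that overlapped, with a log2 fold change of -0.21 (adjusted p = 0.232 among the varying probe sets) that was -0.14 without medium-alone replicate 3. The log2 fold changes of mRpL10 and mRpL11 were -0.21 and -0.26, and without the same array they were -0.032 and -0.18. Around the exit of the peptide tunnel, where bacterial homologues of mRpL22, mRpL23 and mRpL24 sit, the log2 fold changes were -0.15, -0.24 and -0.33, and -0.11, -0.00094 and -0.12 without that array. For mRpL23 the whole difference thus lay in 1 array, which read 9.71 against 8.95 and 9.02.

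In the small subunit the lowest values were those of mRpS18A, mRpS16, mRpS14, mRpS6, mRpS28 and mRpS31. The first of these read 9.10, 9.08 and 10.04 in medium alone and 8.85, 8.56 and 8.87 with fragments, a log2 fold change of -0.65 (SE 0.328, adjusted p = 0.609) that was -0.33 without medium-alone replicate 3. In mammals the homologues of mRpS18A and mRpS30 are found in the large subunit despite their names. Counting both there left the medians at -0.28 and -0.18.

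The homologue of mRpS16 in bacteria binds the body of the small subunit and aids its assembly. Its levels were 9.67, 9.67 and 10.16 in medium alone and 9.19, 9.23 and 9.23 with fragments, 9.83 ± 0.281 against 9.22 ± 0.0216 (SD, n = 3). The groups were apart by 0.44 on the closest pair of arrays. The log2 fold change of -0.61 (a 1.53-fold lower level) passed neither on the whole array (adjusted p = 0.326) nor within the varying set (0.0722). Without medium-alone replicate 3 it was -0.45 with an adjusted p of 0.00302 among the varying probe sets, the smallest of the members there.

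The gene that passed among the varying probe sets, mRpS6, codes for the homologue of a bacterial protein of the subunit's platform. It read 8.06, 8.07 and 8.19 in medium alone and 7.73, 7.62 and 7.86 with fragments. The groups were apart, and the log2 fold change was -0.37 (a 1.29-fold fall; SE 0.0730), with a limma adjusted p of 0.0486 when only varying probe sets were counted and of 0.243 for the whole array. Without medium-alone replicate 3 it was -0.33 and did not pass (adjusted p = 0.0583).

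A protein of the small subunit's head is encoded by mRpS14. The gene read 8.70, 8.70 and 9.32 in medium alone and 8.49, 8.44 and 8.50 with fragments, a log2 fold change of -0.43 that was -0.23 without medium-alone replicate 3. For mRpS28 the levels were 8.23, 8.13 and 8.48 against 7.94, 7.88 and 8.04 (-0.33), and for the mitochondrion-specific mRpS31 they were 9.28, 9.33 and 9.80 against 9.05, 9.05 and 9.35 (-0.32, and -0.16 without that array). The groups were apart in mRpS14 and mRpS28 and overlapped in mRpS31.

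Both members with a higher mean with fragments were of the small subunit, and neither passed. The bacterial homologue of mRpS5 lines the entry of the message channel. It read 10.13, 10.20 and 10.57 in medium alone and 10.44, 10.41 and 10.31 with fragments. Its log2 fold change was 0.089 with all arrays and 0.22 without medium-alone replicate 3 (adjusted p = 0.747 and 0.0694 among the varying probe sets). For mRpS30 the levels were 9.39, 9.31 and 9.36 against 9.35, 9.27 and 9.52, a difference of 0.024 within the spread of the fragment arrays (SD 0.127).

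The remaining named members of the small subunit, mRpS35, mRpS7, mRpS22 and mRpS11, had log2 fold changes between -0.08 and -0.04, and of 0.0067, 0.038, -0.035 and -0.0059 without medium-alone replicate 3. On the second probe set of mRpS11 the log2 fold change was -0.04 with all arrays and 0.033 without that one, so that its probe sets differed in direction without it. The 2 probe sets of mRpL47, given here because it has more than 1, gave -0.29 and -0.30, and both gave -0.17 without that array; in both the groups were apart. No other member had a second probe set.

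The gene mRpS29, which encodes the homologue of the GTP-binding human protein DAP3, known as a death-associated protein, was picked for that role after its values had been seen. It read 8.43, 8.33 and 8.48 in medium alone and 8.18, 8.25 and 8.33 with fragments, a log2 fold change of -0.16 (adjusted p = 0.181 among the varying probe sets). The groups were only just apart, since medium-alone replicate 2 and fragment replicate 3 were nearly equal.

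Genes with bacterial numbers (mRpL up to 36, mRpS up to 21) and those with higher numbers, which are mostly specific to mitochondria, were compared within each subunit. In the large subunit the median log2 fold change was -0.26 for 22 genes of bacterial number and -0.32 for 17 of higher number. In the small subunit it was -0.23 and -0.16 for 12 genes each. With medium-alone replicate 3 left out the medians were -0.12 and -0.15 in the large and -0.063 and -0.078 in the small subunit, so that the opposite order of the classes in the small subunit was not seen without that array. The difference between classes was not tested. Setting mRpL47, mRpS24 and mRpS28, which have bacterial homologues under other names, with the bacterial class gave -0.27 and -0.33, and -0.23 and -0.16, with all arrays, and -0.12 and -0.13, and -0.063 and -0.078, without it. Members on each of the 5 chromosome arms carrying them had a negative median, from -0.31 on X to -0.19 on 2L, and without that array from -0.21 on 2R to -0.049 on 3R.

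The medium-alone arrays differed more among themselves in these genes than in the rest of the array. The median SD of a varying member was 0.230 over the medium-alone arrays and 0.080 over the fragment arrays, against 0.089 and 0.068 for all varying probe sets. Medium-alone replicates 1 and 2 differed by a median of 0.057. The mean difference between the groups exceeded the medium-alone SD in 35 of the 63 members and the fragment SD in 60.

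Medium-alone replicate 3 read above replicates 1 and 2 in 60 of the 63 varying members, and in each of these it was the highest of all 6 arrays, against 29.9% of varying probe sets. The exceptions were mRpL45, mRpL48 and mRpS30. The median excess over the mean of the other medium-alone arrays was 0.37 in the large and 0.40 in the small subunit, against -0.0057 over all varying probe sets. The largest was that of mRpS21, named here for it after its values were seen, which read 10.81 on this array and 9.44 and 9.31 on the others of its group, with 9.49, 9.52 and 9.61 on the fragment arrays. Its log2 fold change of -0.31 became 0.17 without the array. After mRpS21 came mRpS18A, mRpL51 and mRpL55, with excesses of 0.95, 0.94 and 0.92.

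**Figure D2:**
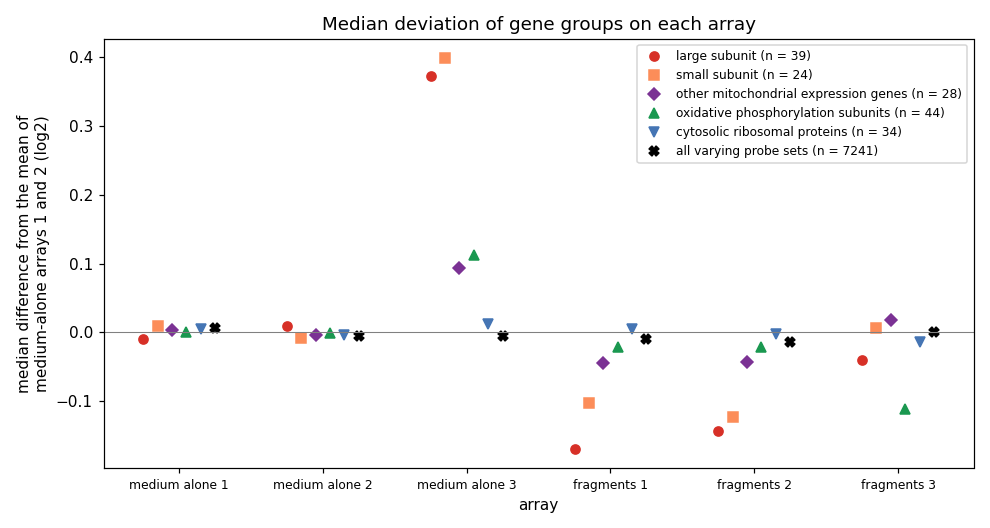
Median log2 difference from the mean of medium-alone replicates 1 and 2 (y axis) on each array (x axis) for the varying members of each subunit, for other gene groups and for all varying probe sets. Both subunits stand at 0.37 and 0.40 on medium-alone replicate 3, and all varying probe sets stay close to 0.

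Compared with the mean of medium-alone replicates 1 and 2, the fragment arrays were not equally low either. The median of the large subunit was -0.17 and -0.14 on fragment replicates 1 and 2 and -0.040 on replicate 3, and that of the small subunit was -0.10, -0.12 and 0.0064. All varying probe sets had medians between -0.013 and 0.00093 on these arrays. A lower level with fragments was thus seen mainly on 2 of the 3 fragment arrays once medium-alone replicate 3 was set aside. The remaining fragment array, replicate 3, shares its number with the array set aside. The deviations of these 2 arrays correlated at 0.375, and whether the 2 are a pair was not tested.

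When medium-alone replicate 3 was left out, limma called 6 of the 63 varying members (9.52%) among the varying probe sets, all lower, against 7.37% of varying probe sets called lower and 4.72% called higher. They were mRpS16, mRpL20, mRpL43, mRpS14, mRpL49 and mRpL18, with log2 fold changes between -0.45 and -0.18; mRpL18 is not among the genes the naming rule selects and is given because it passed. Over all probe sets 0 members passed without this array in limma, with 13 (18.8%) at an unadjusted p under 0.05, against 11% of all probe sets. The 11% is taken mostly over flat probe sets, which few members are, so these shares are not like for like. Only mRpL43 passed among the varying probe sets both with and without the array.

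**Figure D3:**
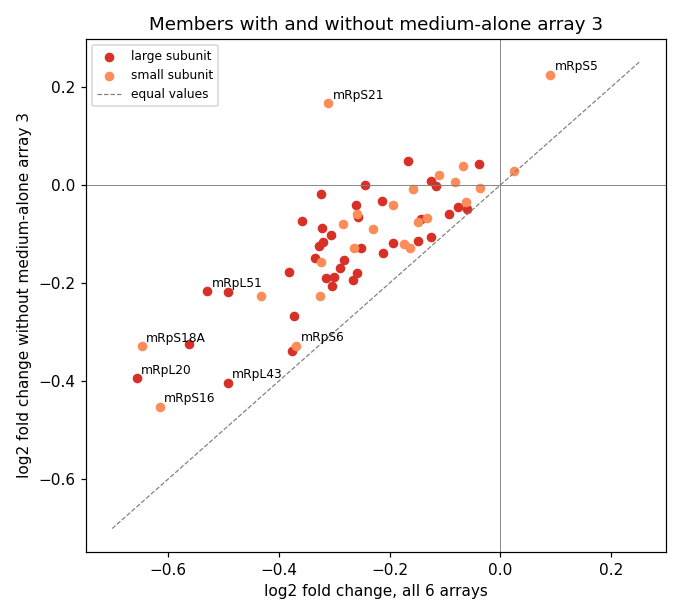
Log2 fold change of each varying member without medium-alone replicate 3 (y axis) against that with all 6 arrays (x axis), with a dashed line at equal values. Points lie above the line because that array read high; without it mRpS16, mRpL43 and mRpL20 are lowest at -0.45, -0.40 and -0.39, and mRpS21 crosses 0.

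**Figure D4:**
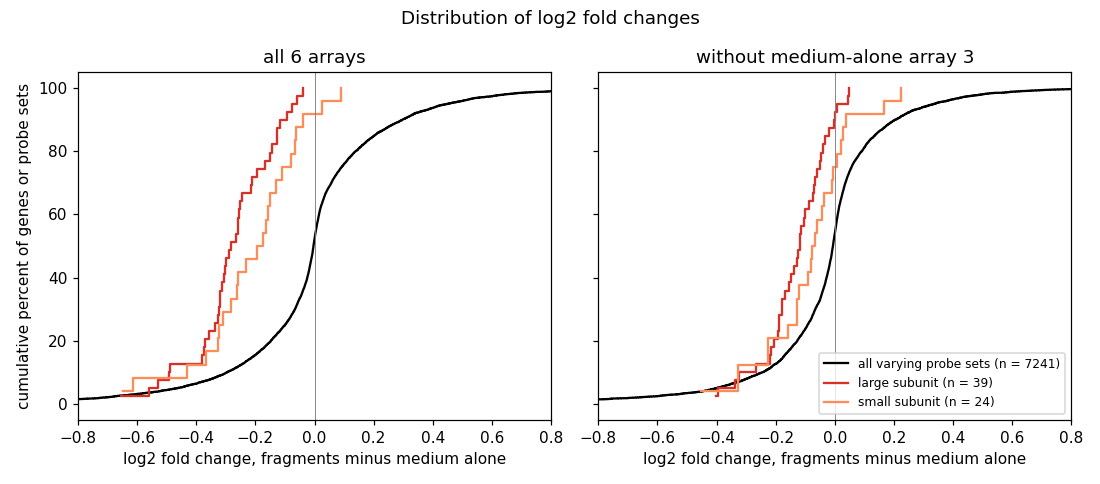
Cumulative percent (y axis) of log2 fold changes (x axis, cut at 0.8 on either side) for the large subunit, the small subunit and all varying probe sets, with all 6 arrays on the left and without medium-alone replicate 3 on the right. Over most of their length the curves of both subunits lie to the left of all varying probe sets, by less in the right panel, where the medians are -0.12 and -0.071.

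Among all varying genes the short ones read high on medium-alone replicate 3, and the members are short. The 63 varying members had a median gene length of 854 bp in the RefSeq table, introns included, against 2639 bp for 5504 varying genes. Across those 5504 genes, length and the excess on this array had a Spearman rho of -0.62, and across the 63 members of -0.51. These are descriptions across genes that share the same arrays. Among genes under 1000 bp the median excess was 0.43 for 40 members and 0.19 for 695 varying genes, and from 1000 to 2000 bp it was 0.25 for 21 members and 0.087 for 1452 genes.

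The log2 fold changes followed length in the same manner, but less so without that array. With all arrays, the rho between length and log2 fold change was 0.48 in the members and 0.37 in all varying genes, and without medium-alone replicate 3 it was 0.24 and 0.12. Members under 1000 bp then had a median of -0.12, with 36 of 40 lower, and all varying genes of that length -0.015, with 59.9% lower. Longer members up to 2000 bp had -0.073, with 18 of 21 lower, against -0.016 and 58.3%. Only mRpS5 and mRpS30 were longer, and these were the members with a higher mean with fragments.

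**Figure D5:**
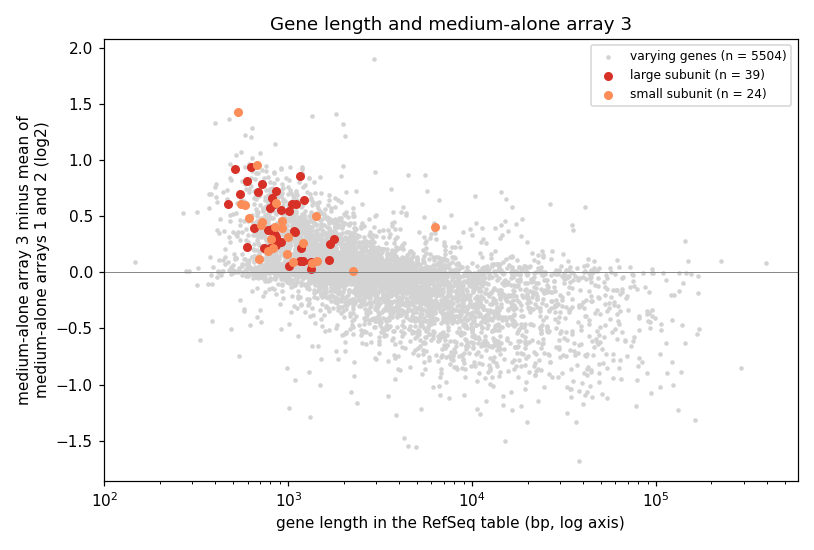
Difference between medium-alone replicate 3 and the mean of replicates 1 and 2 (y axis, log2) against gene length (x axis, log scale) for varying genes (grey) and for the varying members of each subunit (coloured). Members sit at the short end, where their median excess under 1000 bp is 0.43 against 0.19 for varying genes; mRpS21 is the highest member at 1.43.

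Control probe sets for both ends of 3 long-used transcripts gave a measure of RNA and labelling quality. The mean log2 difference between the 3' and the 5' probe sets of actin, eIF-4a and GAPDH was 1.60 on medium-alone replicate 3, and 1.84 and 1.70 on the other medium-alone arrays. On the fragment arrays it was 1.84, 1.47 and 1.86. Medium-alone replicate 3 was thus the lowest of its group in this mean, with only fragment replicate 2 below it. By transcript this order within the group held only for eIF-4a, at 1.81 against 2.19 and 2.23. For actin and GAPDH medium-alone replicate 2 was lower, at 1.64 and 1.24 against 1.67 and 1.33 on replicate 3. The measure rests on 3 transcripts, and its relation to the excess of short genes was not tested.

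The mitochondrial ribosomal proteins tko and bonsai, homologues of the small subunit proteins S12 and S15, fall outside the symbol rule. Mutants of tko, which encodes a protein of the decoding centre, are known for seizures after mechanical shock. It read 9.49, 9.44 and 10.16 in medium alone and 9.26, 9.36 and 9.38 with fragments, a log2 fold change of -0.37 (adjusted p = 0.686) that was -0.14 without medium-alone replicate 3. For bonsai the levels were 8.98, 8.98 and 9.10 against 8.99, 8.98 and 9.06, a difference of -0.011 that was 0.026 without medium-alone replicate 3. On medium-alone replicate 3 tko stood 0.69 above the other medium-alone arrays and bonsai 0.11.

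A list of mitochondrial gene expression genes outside the symbol rule leaned less. It was written with translation factors, mitochondrial tRNA synthetases and the replication and transcription machinery. It also holds tko and bonsai, so it is not free of mitochondrial ribosomal proteins. Of 71 symbols written 40 were measured and 28 varied, with a median log2 fold change of -0.036 and 19 of 28 lower; without medium-alone replicate 3 these were -0.012 and 15. Over all probe sets 0 of the 40 passed in limma, with 5 (12.5%) at an unadjusted p under 0.05 against 10.8% of all probe sets; PolrMT, which is flat, is one of the 5. Among the varying probe sets 7 of the 28 (25%) had an unadjusted limma p under 0.05, against 23.6%, and 1 passed after adjustment, against 6.85%. That gene was mtDNA-helicase, which unwinds the mitochondrial genome during its replication. It read 7.77, 7.73 and 7.84 in medium alone and 7.02, 7.27 and 7.31 with fragments, a log2 fold change of -0.59 (a 1.50-fold fall; limma adjusted p = 0.0223 in the varying set and 0.172 for all probe sets). The excess of medium-alone replicate 3 was only 0.091 there.

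By the rule for named genes, IleRS-m and PolG1 were also examined. The former encodes the mitochondrial isoleucyl-tRNA synthetase and read 7.44, 7.50 and 7.46 against 7.29, 7.34 and 7.30, a log2 fold change of -0.16 (adjusted p = 0.0567 among the varying probe sets). The latter encodes the catalytic subunit of the mitochondrial DNA polymerase, with 7.78, 7.61 and 7.80 against 7.34, 7.44 and 7.51, a log2 fold change of -0.30 (0.0762). In both the groups were apart, and neither passed. On the list as a whole, 14 of 28 genes had their highest value on medium-alone replicate 3.

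The respiratory chain and ATP synthase subunits encoded in the nucleus, and the proteins of the cytosolic ribosome, were set beside the members. For 44 varying genes of oxidative phosphorylation subunits the median log2 fold change was -0.10, with 43 lower, and -0.050 without medium-alone replicate 3, with 42 lower. Genes of cytosolic ribosomal proteins (34 varying) had a median of -0.0059 and, without that array, -0.0031. The median excess on that array was 0.013 for these genes and 0.11 for the oxidative phosphorylation subunits. Among varying genes the median level was 13.4 for the cytosolic ribosomal proteins, 10.5 for the oxidative phosphorylation subunits and 8.98 for the members. The part of level in these values was not tested. In neither list did a gene pass in limma over all probe sets, with 5 of 71 (7.04%) and 2 of 41 (4.88%) genes at an unadjusted p under 0.05, against 10.8% of all probe sets. Whether these groups differ was not tested.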

How the data were processed

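Gene expression was measured on Affymetrix arrays in 6 S2 cultures, with biotinylated cRNA made from 150 ng of total RNA, per the labels' protocols. The deposited values are log2 expression levels per probe set and array; the submitters' processing notes name R 2.7.2, and the sources used here give no probe summary or normalization method. The small number of arrays limits the precision, and flat probe sets can show no change. The p-values measure the spread between cultures called biological replicates in the labels.

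The 183 control probe sets were left out and the other 18769 used as deposited. All 69 members were found in the RefSeq gene table (Release 6 plus ISO1 MT), whose lengths were used; as no build is named for the array, no coordinates are given, and sequences were not used here. Groups, from the sample titles, were fitted in R 4.3.3 using limma 3.58.1 (lmFit, eBayes without trend; Benjamini-Hochberg; threshold 0.05), over all probe sets and over the 7241 varying ones. The varying range is taken over all 6 arrays and so also responds to group differences. The fits were tested on simulated data. Named genes were the 6 highest and 6 lowest fold changes and the highest and lowest level in each subunit, any member called over all probe sets, members whose probe sets differ in direction, tko, bonsai and the 3 smallest p-values of the other list; others are marked in the text. The values by number class, arm and scale without 1 array, and the exceptions to number and subunit, were chosen after seeing the data. The members and lists were chosen with earlier results of these data known.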

Additional observations from a re-analysis of the deposited data

How the results depend on the processing

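Over all probe sets 0 members were called in limma under the replicate block, quantile normalization, the spike scale, the filter on dim probe sets, averaged probe sets, eBayes with trend or robust, an adjusted p of 0.1, and with any 1 array left out. Leaving out the flat probe sets gave 2 calls (1 of the large and 1 of the small subunit), and centring on the median of varying probe sets gave 3 (2 and 1). Among the varying probe sets the 2 calls became 0 with quantile normalization, on the spike scale, with that centring and with varying defined as a range above 1e-06, 1 with eBayes trend or robust, and 5 at an adjusted p of 0.1. With 1 array left out the count ranged from 0 to 6; it was 0 without medium-alone replicate 1 or 2 or fragment replicate 1 or 2, and 6 without medium-alone replicate 3. The cause was not tested.

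On the spike scale the median of the large subunit moved to -0.020, and those of the small subunit and of the other mitochondrial genes turned to 0.078 and 0.23; by construction every value rose by 0.26. The same shift turned bonsai to 0.25, IleRS-m to 0.11, mRpL1 to 0.18, mRpL2 to 0.17, mRpL12 to 0.050, mRpL39 to 0.22, mRpL40 to 0.15, mRpL45 to 0.20, mRpL48 to 0.14, mRpS7 to 0.20, mRpS11 to 0.22, mRpS22 to 0.20 and mRpS35 to 0.18. For bonsai the value was also 0.0046 after quantile normalization and 0.0067 after centring. With 1 array left out, the log2 fold change ranged from -0.038 to 0.026 for bonsai, -0.089 to 0.044 for mRpL39, -0.14 to 0.0067 for mRpS35, -0.12 to 0.038 for mRpS7 and -0.045 to 0.079 for mRpS30. The median of the other mitochondrial genes ranged from -0.049 to -0.012.

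Same-numbered arrays share only a number in the labels, so they were not taken as pairs in the main fit. Their deviations correlated at 0.44, 0.038 and 0.375, positive for replicates 1 and 3, so these values do not show that the arrays are unpaired. If the numbers mark pairs, leaving out medium-alone replicate 3 keeps fragment replicate 3 without its partner. With the replicate block 0 members were called on the whole array and 2 in the varying set, mRpL38 and mRpS6, while mRpL43 had an adjusted p of 0.0596 there. The 3 arrays per group limit the precision, and flat members can show no change.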
